A study of Mus musculus with 2 samples.

Results

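Interferon-stimulated genes and the receptors for type I and type II interferon were examined in eosinophils, the granulocytes of allergic and antiparasite responses. The 42 genes were taken as a list by symbol, 38 inducible genes and 4 receptor chains, and all 42 were found among the 23343 genes of the deposited tables. Their RPKM values (reads scaled to transcript length and library size) and read counts were summed over the rows of each symbol. Eosinophils positive for CCR3 and SiglecF had been sorted from pooled bone marrow of naive, untreated C57BL6J mice, and poly(A) RNA of 2 independent sorts, here sort 1 and sort 2, was sequenced. The libraries form 1 group with no treated or mutant counterpart. The sources used here do not state the age, sex or number of the pooled mice.

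The tables of the sorts held 10087743 and 9264150 counted reads, and the sorts stood apart in several respects that touch the results below. Xist, the RNA of the silenced X chromosome, had 47487 reads in sort 1 and 5 in sort 2, while 4 Y-linked genes together had 0 and 2439. The ribosomal RNA precursor Rn45s had 914623 and 89209 reads. The labelled cell type was checked against its markers. All 9 eosinophil markers in the tables exceeded 10 RPKM in both sorts. Ccr3 had 114 RPKM in sort 1 and 118 in sort 2, but others were further apart, such as the granule protein Prg2 with 911 and 1339 and Il5ra with 43.3 and 62.6, and 8 of the 9 had lower scaled counts in sort 1. The 12 neutrophil markers were detected as well, with median RPKM values of 59.3 and 55.6. Of 8 basophil and mast cell markers 7 were detected, with medians of 4.17 RPKM in sort 1 and 3.51 in sort 2. Which cells in the sorts the transcripts described below came from was not tested. In bulk RNA, fewer cells of a type and less RNA per cell cannot be told apart.

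Type I interferons signal through the chains Ifnar1 and Ifnar2, and interferon gamma through Ifngr1 and Ifngr2. Their Janus kinases activate STAT proteins. The complex called ISGF3, which holds Stat2 and Irf9, binds the interferon-stimulated response element (ISRE), and STAT dimers activated by interferon gamma bind the gamma-activated site (GAS). The induced genes encode sensors of foreign nucleic acid, proteins that block viral replication, and enzymes that modify other proteins, and many of them also have a low tonic level in blood cells that have met no infection.

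Transcripts of most of the 42 genes were found in the RNA of these sorted cells, at low to moderate deposited RPKM. A gene counted as detected when both libraries gave it 1 RPKM or more. By that measure 30 of 42 members, or 71.4%, were detected, against 30.2% of all genes. Values of 10 RPKM or more in each library were found for 7 members, or 16.7%, against 5.55% of all genes. The median over the members was 2.50 RPKM in sort 1 and 2.54 in sort 2, against 0.108 and 0.0896 over all genes. The list is one of immune genes, chosen with earlier results of these data known, and all genes include many that are silent in blood. These shares therefore describe the list and do not set it apart from other immune lists. The deposited RPKM divide by more reads than the tables hold, so absolute levels here and below are low, and so are the counts of genes detected. With each table's own total without Rn45s as divisor, the members' median, 2.52 as a mean of both sorts, became 11.1.

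Members spanned a range from Samhd1 at 163 ± 6.27 RPKM to Mx2 at 0.0305 ± 0.0432 (SD, n = 2). By mean RPKM, 8 members lay at 10 or more, 24 between 1 and 10, and 10 below 1. The order was much the same in both libraries, with a Spearman correlation of 0.968 across the 42 genes, which share both libraries and are not independent replicates. Of all counted reads in sort 1, 0.518% belonged to members, with a 95% Wilson interval of 0.514 to 0.522. In sort 2 the share was 0.532%, with an interval of 0.528 to 0.537. The order of the sorts turned round when Rn45s was left out of the total, an alternative chosen after the data were seen, with 0.57% (0.565 to 0.575) in sort 1 and 0.537% (0.533 to 0.542) in sort 2. Samhd1 alone held 51.8% (51.3 to 52.2) and 52.2% (51.7 to 52.6) of those reads.

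**Figure D1:**
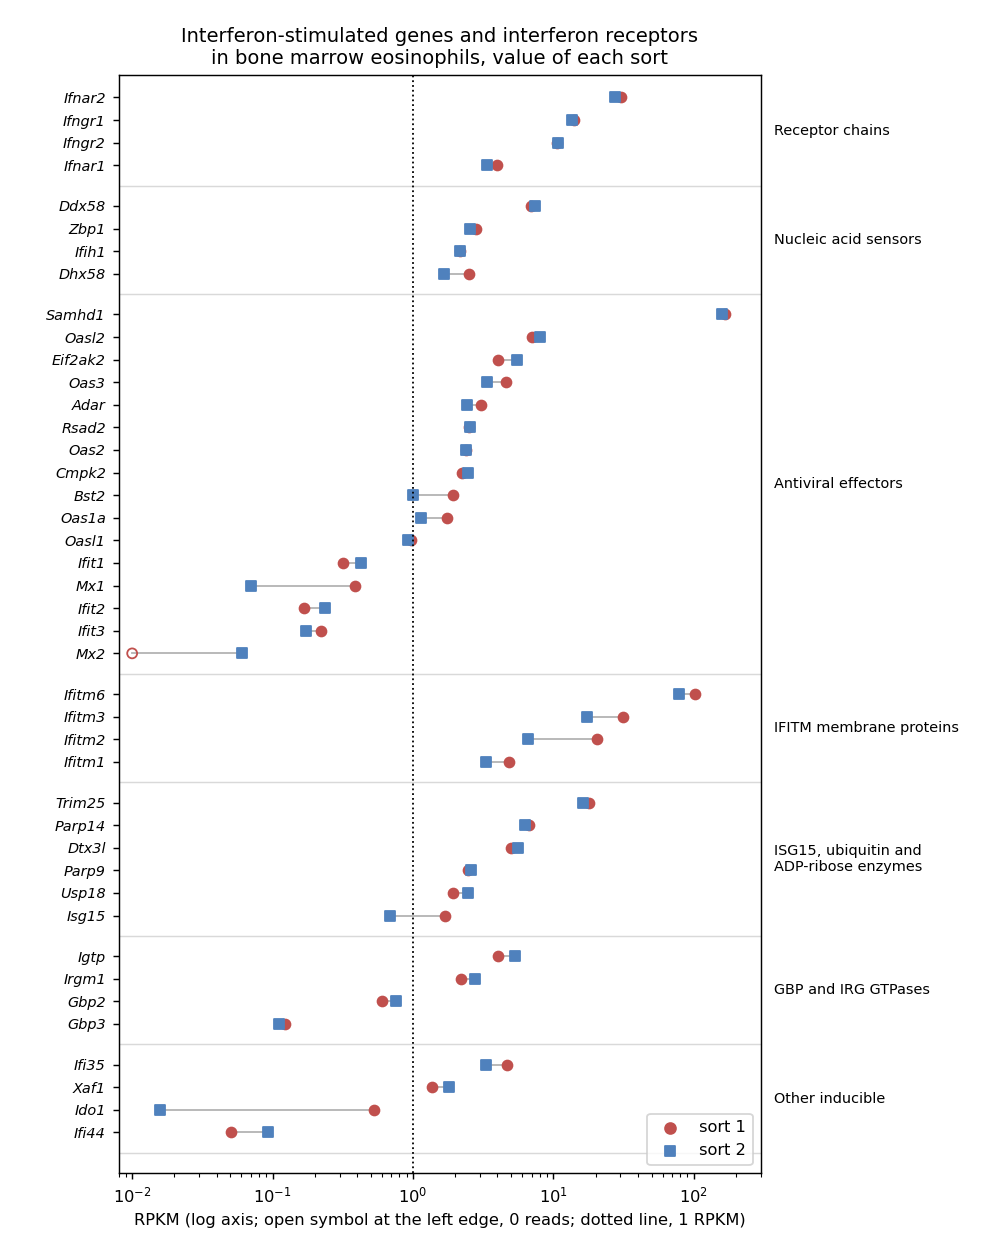
RPKM of each of the 42 genes (log axis) in sort 1 (circle) and sort 2 (square), grouped by role and ordered by mean within each group; the grey line joins the sorts. All 4 receptor chains lie right of 1 RPKM, Samhd1 and Ifitm6 lie farthest right, and the Ifit and Mx genes lie left of the line.

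All 4 receptor chains were detected. Ifnar2, the ligand-binding chain of the type I receptor, had 30.5 RPKM in sort 1 and 27.6 in sort 2. Its partner Ifnar1 had 3.97 and 3.35 RPKM. By RPKM, Ifnar2 thus exceeded Ifnar1 in both sorts by far more than either gene varied between them. The means were 29.1 ± 2.01 and 3.66 ± 0.439 RPKM (SD, n = 2). In reads the gap was smaller, with 2723 in sort 1 and 2853 in sort 2 for Ifnar2 against 1128 and 954 for Ifnar1. Part of the RPKM gap therefore comes from the scaling to transcript length. Ifngr1, the ligand-binding chain for interferon gamma, had 14.0 and 13.6 RPKM. Ifngr2, its signalling partner, had 10.7 and 10.8 RPKM. The gamma receptor chains were therefore closer to each other than the type I chains were, and the 2 sorts gave the same RPKM order of all 4. The row of Ifnar2 groups several transcripts, so its RPKM depends on how the authors' program split reads among them. Ifnar2, Ifnar1 and Ifngr2 lie together on chromosome 16, at chr16:91372783-91564007 in mm10, and Ifngr1 lies on chromosome 10.

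The 4 nucleic acid sensors were all detected between 1 and 10 RPKM. Ddx58, the RNA helicase RIG-I, led with 6.96 RPKM in sort 1 and 7.40 in sort 2. Zbp1, a sensor of left-handed nucleic acid that can start necroptosis, had 2.80 and 2.56 RPKM. Ifih1, the long-RNA sensor MDA5, had 2.18 and 2.17, with 486 reads in each sort. Dhx58, the regulatory helicase LGP2, had 2.49 and 1.66 RPKM and was the sensor that varied most, at 2.08 ± 0.582 (SD, n = 2). Ddx58 was the highest of them in both sorts, while Zbp1 and Dhx58 in sort 1 differed by less than Dhx58 differed between the sorts.

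Among the 16 antiviral effectors 9 were detected, and their levels fell into very different ranges. Samhd1, which degrades deoxynucleotides and so starves reverse transcription, had 167 RPKM in sort 1 and 158 in sort 2 and ranked 43 of all 23343 genes by mean RPKM. Oasl2, of the family of oligoadenylate synthetase-like proteins, had 7.02 and 8.08 RPKM. Eif2ak2, the RNA-activated kinase PKR, had 4.04 and 5.49. The distance from Samhd1 to the next effector was many times the spread of either gene between the sorts.

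The oligoadenylate synthetases make a small nucleotide messenger when they bind double-stranded RNA. Oas3 had 4.57 and 3.37 RPKM, Oas2 had 2.39 and 2.38, and Oas1a had 1.74 and 1.13. Oas3 was the highest and Oas1a the lowest of the 3 in both sorts. The relative Oasl1 had 0.965 and 0.928 RPKM, just under the minimum in each library.

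Rsad2, or viperin, which makes a chain-terminating nucleotide, had 2.51 and 2.53 RPKM. Its divergent neighbour Cmpk2, a nucleotide kinase, had 2.23 and 2.48, and the genes lie within chr12:26442743-26479837 (mm10). Adar, which edits adenosine in double-stranded RNA, had 3.07 and 2.44 RPKM. The tables held Adar in separate rows by start. The row starting upstream had 0 and 113 reads, and the row starting downstream had 724 and 467. An interferon-inducible and a constitutive form of Adar are known to start at different promoters, but which form each row stands for was not determined. Bst2, or tetherin, which holds budding virions at the cell surface, had 1.93 RPKM in sort 1 and 0.997 in sort 2 and so missed the minimum by a narrow margin.

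The Ifit and Mx genes, among the most strongly induced genes of an antiviral response, were at the bottom of the list. Ifit1, which binds foreign 5′ ends of RNA, had 34 reads in sort 1 and 46 in sort 2, or 0.318 and 0.429 RPKM. Ifit2 had 27 and 38 reads and Ifit3 had 18 and 14. The 3 Ifit genes lie in 1 stretch of chromosome 19, at chr19:34550694-34650009, and none exceeded 0.5 RPKM in either sort. Mx1, a dynamin-like GTPase that blocks influenza virus, had 43 and 7 reads, and its gene is known to be defective in C57BL/6 mice. Mx2 had 0 reads in sort 1, which allows up to 3, and 6 in sort 2, split evenly over rows with nearly the same ends. Ifit genes and other members have close relatives in the mouse genome, and reads that such copies share may have been split by the authors' counting, so single values of these low members are uncertain.

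The IFITM proteins, small membrane proteins that hinder virus entry, had a median of 26 RPKM in sort 1 and 11.9 in sort 2, above the receptors' 12.3 in sort 1 and near their 12.2 in sort 2. Ifitm6 had 102 and 78.8 RPKM and ranked 84 of all genes by mean RPKM. Ifitm3, the best known of them for restricting influenza virus, had 31.4 and 17.3, and Ifitm2 had 20.6 and 6.56. Ifitm1 had 4.84 and 3.33 RPKM, most of it from the row with the upstream start. The order Ifitm6, Ifitm3, Ifitm2, Ifitm1 was the same in both sorts, and all 4 genes were higher in sort 1. They lie side by side at chr7:140954839-141016892 (mm10).

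Genes of the ISG15 and ADP-ribose systems were detected with 1 exception. Trim25, the ubiquitin ligase that activates RIG-I, had 18.0 RPKM in sort 1 and 16.1 in sort 2. Parp14 had 6.69 and 6.23, the ubiquitin ligase Dtx3l 5.03 and 5.59, and its partner Parp9 2.46 and 2.61 RPKM. Parp14, Dtx3l and Parp9 are neighbours at chr16:35832878-35972621. Dtx3l and Parp9 overlap by 558 bases on opposite strands, and since the strand setting of the counting is not given, reads in that overlap cannot be assigned with certainty. Usp18, which removes ISG15 from proteins and restrains Ifnar2, had 1.92 and 2.45 RPKM. Isg15, the ubiquitin-like modifier itself, had 52 reads in sort 1 and 21 in sort 2, or 1.70 and 0.684 RPKM. Usp18 thus exceeded Isg15 in both sorts, but in sort 1 by less than either gene varied between the sorts.

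Of the GTPases that respond to interferon gamma, the immunity-related members were detected and the guanylate-binding members were not. Igtp had 4.04 RPKM in sort 1 and 5.34 in sort 2, and Irgm1 had 2.18 and 2.76. Gbp2 had 0.603 and 0.762 RPKM and Gbp3 had 0.122 and 0.112. Some proteins of both families attack the vacuoles of intracellular parasites. Gbp7 and Gbp9, which are no members, had 4.04 ± 0.902 and 4.85 ± 0.711 RPKM (SD, n = 2), so low levels did not extend to every guanylate-binding gene. Gbp4, Gbp5, Gbp6 and Gbp8, no members either, were not detected. Of further immunity-related GTPases outside the list, Irgm2 and Ifi47 were detected, and Iigp1, Tgtp1 and Tgtp2 were not. The contrast between the families therefore holds for the members only. Among the remaining members Ifi35 had 4.65 and 3.31 RPKM and the apoptosis factor Xaf1 1.37 and 1.81. Ido1, which breaks down tryptophan, had 33 reads in sort 1 and 1 in sort 2, and Ifi44 had 6 and 11 reads.

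The promoters of the members were searched for the element that ISGF3 binds. RefSeq promoter windows on GRCm38.p6, 250 bases before to 50 after a start, matched 33 of the 42 members by symbol. For 26 of the 33 the RefSeq start of a window was also a start in the deposited tables. Dhx58, Ido1, Mx1, Mx2, Oas2, Parp14, Parp9, Usp18 and Zbp1 were not matched. The ISRE core was taken as GAAA, any 2 bases and GAAA, on either strand, and it was present in 16 of 33 members, or 48.5%, against 3.99% of the 27025 genes in the promoter table. A core that runs on into CT was found in 9 members, against 0.303% of genes. The GAS core, TTC, any 3 bases and GAA, was found in 12 members, or 36.4%, against 9.55% of genes. In 2 members, Ifitm3 and Bst2, the cores of both kinds overlapped. Such matches describe the letters only and are no measure of binding.

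The stretches below show cores that lie before the start, each with 15 bases on either side, 5′ to 3′ on the strand of the gene with the core in capitals. Cores on the gene's own strand read GAAA, and those on the other strand read TTTC.
Isg15, chr4:156200860-156200911, minus strand: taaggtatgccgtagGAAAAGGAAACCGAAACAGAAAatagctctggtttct
Ifitm2, chr7:140955983-140956022, minus strand: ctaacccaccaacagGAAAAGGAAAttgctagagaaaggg
Oas1a, chr5:120907515-120907560, minus strand: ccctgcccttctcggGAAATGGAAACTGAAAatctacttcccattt
Oas3, chr5:120777710-120777749, minus strand: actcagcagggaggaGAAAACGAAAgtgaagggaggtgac
Bst2, chr8:71537572-71537617, minus strand: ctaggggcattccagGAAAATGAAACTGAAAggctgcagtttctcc
Irgm1, chr11:48871420-48871465, minus strand: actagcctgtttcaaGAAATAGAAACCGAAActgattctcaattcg
Igtp, chr11:58199507-58199546, plus strand: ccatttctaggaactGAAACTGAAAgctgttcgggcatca
Gbp2, chr3:142620589-142620628, plus strand: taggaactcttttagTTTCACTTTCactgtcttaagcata
Ifit1, chr19:34640770-34640828, plus strand: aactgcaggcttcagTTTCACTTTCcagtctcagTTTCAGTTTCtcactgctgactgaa
Ifit3, chr19:34583392-34583431, plus strand: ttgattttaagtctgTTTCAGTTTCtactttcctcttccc

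Isg15 held 3 overlapping cores in a row, Oas1a, Bst2, Irgm1 and Gbp3 each held a pair that overlapped, and Ifit1, Ifit3 and Ifitm3 each held a pair set apart. In all there were 25 cores, beginning between 156 bases before the start and 33 bases after it, with a median of 46 bases before it. All 4 GTPases of the list held a core, as did 7 of 13 matched effectors, and none of the 4 receptor chains or of the 3 matched members of the remaining inducible group did. The RefSeq starts of the Bst2 and Irgm1 windows lie 35 and 74 bases from the nearest start in the tables. That of the Gbp3 window with cores lies 8 bases away.

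Members with the core had no higher median level than those without it, a description with no test. The 16 members with a core had median RPKM values of 2.18 in sort 1 and 2.35 in sort 2, and 10 of them were detected. The 17 matched members without one had medians of 4.84 and 3.35, and 14 were detected. The window of Ifitm1, counted as without a core, belongs to its downstream start, with 9 and 12 reads, and the upstream start, with 123 and 79 reads, was not searched. Samhd1 and Ifitm6, the 2 highest members, held no core in their windows. The 100 bases before the start are shown for these members, since they carry the highest levels without an exact core.
Samhd1, chr2:157135097-157135196, minus strand: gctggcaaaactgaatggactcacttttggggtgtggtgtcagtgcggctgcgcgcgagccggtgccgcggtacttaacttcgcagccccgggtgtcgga
Ifitm6, chr7:141016893-141016992, minus strand: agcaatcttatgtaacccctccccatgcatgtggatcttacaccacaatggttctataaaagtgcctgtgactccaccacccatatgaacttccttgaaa
The RefSeq start of the Samhd1 window lies 126 bases from the start that was counted, at chr2:157135222. The stretch shown lies downstream of that counted start, inside the counted gene. The window, which ends at chr2:157135346, reaches only part of the 250 bases before the counted start, so those bases were not fully searched.

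**Figure D2:**
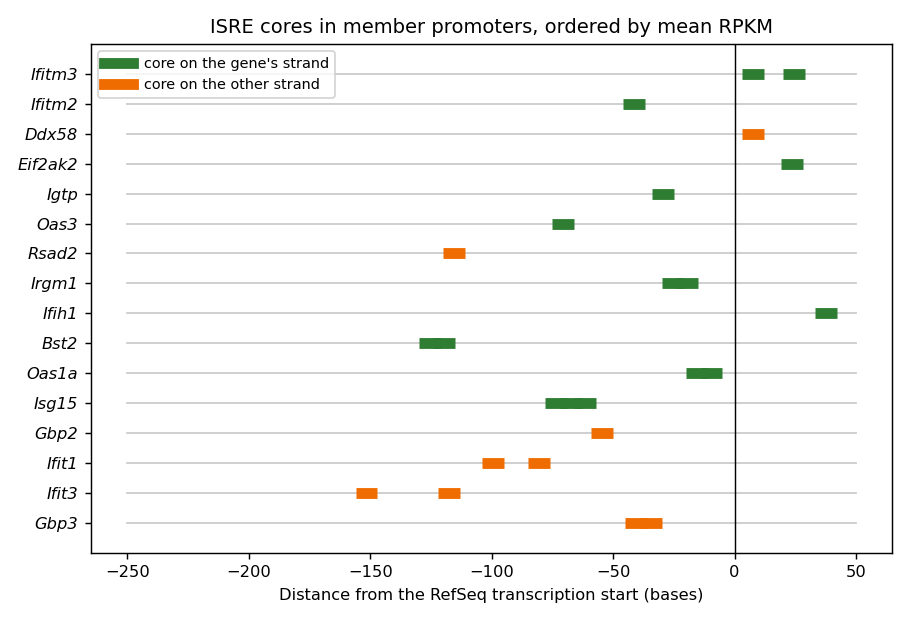
Place of each ISRE core (thick bar) in the promoter windows of the 16 members that hold one, as distance from the RefSeq start in bases; genes run from the highest mean RPKM at the top to the lowest. Most cores lie before the start, while those of Ifitm3, Ddx58, Eif2ak2 and Ifih1 lie after it.

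The machinery between receptor and promoter was present in both sorts. All 6 genes of signal transduction were detected, with median RPKM values of 8.70 in sort 1 and 8.64 in sort 2. Jak1, the kinase that both receptor types use, had 32.5 and 31.3 RPKM. Tyk2, its partner at the type I receptor, had 3.21 and 2.52, and Jak2, its partner at the gamma receptor, had 9.31 and 8.99. Jak1 was the highest kinase and Tyk2 the lowest in both sorts. Among the receptor chains, Ifnar2, which is known to bind Jak1, had the highest RPKM, and Ifnar1, which binds Tyk2, the lowest. The gamma receptor chains, which use Jak1 and Jak2, lay between them. A link between the levels of chains and kinases was not tested. In ISGF3, the subunit Irf9 had 8.10 and 8.29 RPKM and Stat2 had 5.64 and 5.25.

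Genes that restrain the signal were unevenly represented. The phosphatase Ptpn6, or SHP-1, had 27.8 RPKM in sort 1 and 18.7 in sort 2. Pias1, an inhibitor of STAT signalling, had 6.56 and 8.34, the STAT phosphatase Ptpn2 4.98 and 6.65, and Ptpn11 2.53 and 2.25. The inducible inhibitors Socs1 and Socs3 were not detected, with 9 and 5 reads for Socs1 and 25 and 11 reads for Socs3. For the type III receptor, Il10rb, a chain shared with the interleukin-10 receptor, had 3.02 and 2.61 RPKM, and Ifnlr1, the chain that binds type III interferon, had 0.505 and 0.546.

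Transcripts of the interferons themselves were nearly absent. Of 19 interferon genes in the tables, 16, Ifnb1 among them, had no read in either sort, which allows up to 3 reads per gene and library. The others had 1 read for Ifna2, 2 for Ifne and 2 for Ifng, all in sort 2. The Ifna genes are close relatives of each other, and reads that they share may have been split or left out by the authors' counting. The limit of 3 reads does not cover such a loss. Genes that act upstream of interferon production were present, with 8 of 10 detected. Tbk1, the kinase that activates Irf3, had 8.34 and 9.74 RPKM, and Tmem173, the adaptor STING, had 7.51 and 6.47. Ticam1 had 5.78 and 4.21 RPKM, Myd88 5 and 3.87, Irf3 3.66 and 3.50, Traf3 3.65 and 3.09, and Mavs, the adaptor of RIG-I and MDA5, 1.35 and 1.13. Irf7, which is itself inducible, had 4.35 and 2.39. Mb21d1, the DNA sensor cGAS, had 0.969 and 1.02 RPKM and fell just short.

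Among the other interferon regulatory factors Irf2, which opposes Irf1 at shared sites, had 12.3 RPKM in sort 1 and 17.0 in sort 2. Irf1 had 9.16 and 6.93, so the order of these factors was the same in both libraries. Irf5 had 3.83 and 2.68 RPKM. Irf8 had 0.882 and 0.784 and was not detected.

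**Figure D3:**
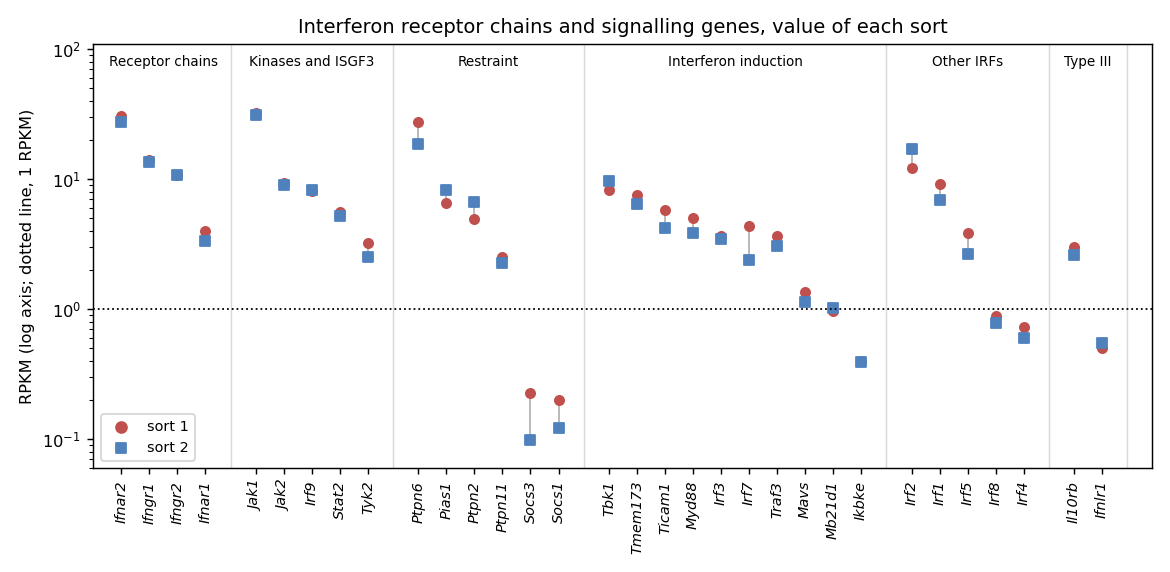
RPKM (log axis) of the receptor chains and of genes of interferon signalling and induction in sort 1 (circle) and sort 2 (square). Receptor chains, kinases, Irf9 and Stat2 lie above 1 RPKM in both sorts, and Socs1, Socs3, Ikbke, Irf4, Irf8 and Ifnlr1 lie below.

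A further list of interferon-inducible genes gave levels like those of the members, with 40 of 61 genes detected and medians of 2.87 and 2.65 RPKM. Among the 10 highest were B2m, a subunit of MHC class I molecules, at 641 ± 120 RPKM (SD, n = 2), Ly6e at 57.0 ± 9.93, the nuclear body protein Sp100 at 41.4 ± 0.497, Slfn2 at 28.7 ± 11.2, the immunoproteasome subunits Psmb9 at 17.0 ± 8.97 and Psmb8 at 16.3 ± 2.81, Sp110 at 16.5 ± 0.167, Slfn8 at 10.3 ± 0.339 and Tapbp at 9.72 ± 2.62. Cxcl9 and Cxcl10, chemokines that rise strongly with interferon, were near 0, with 16 reads in sort 1 and 13 in sort 2 for Cxcl9 and 13 and 16 for Cxcl10. At 0.325 ± 0.047 RPKM (SD, n = 2), Cxcl10 lay within the range of the Ifit genes, and Cxcl9, at 0.123 ± 0.0182, lay below it.

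Between the sorts most members were close. The ratio of sort 1 to sort 2 was taken from counts scaled by TMM with a prior count of 2, over the 41 members with at least 10 reads in both sorts together. The median log2 ratio was -0.01 over these members and 0.00 over all 12347 genes with as many reads, and the median absolute log2 ratio was 0.30 and 0.33. Of the 41 members 4, or 9.76%, were at least 2-fold higher in sort 1, against 6.04% of all genes, and 0 were at least 2-fold higher in sort 2, against 4.0% of all genes. With 1 library a sort there is no replicate check of a difference between them. The intervals below are exact 95% Clopper-Pearson intervals and cover counting error only. That interval lay above a ratio of 1 for 15 members, or 36.6%, against 24.4% of all genes. It lay below 1 for 9, or 22%, against 25.3% of all genes, and held 1 for 17.

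The 4 members past 2-fold were Ido1, Mx1, Ifitm2 and Isg15. Ido1, with 33 reads in sort 1 and 1 in sort 2, had a log2 ratio of 3.50, and its counts gave a ratio of 31.5 with an interval of 5.27 to 1281. Mx1, with 43 and 7 reads, had a log2 ratio of 2.26 and a count ratio of 5.86 (2.61 to 15.4). These rest on few reads in sort 2. Ifitm2 had 523 and 167 reads, a log2 ratio of 1.57 and a count ratio of 2.99 (2.51 to 3.58), and so was the member whose difference was measured with the most reads. Isg15 had 52 and 21 reads, a log2 ratio of 1.17 and a count ratio of 2.36 (1.4 to 4.13), an interval that reaches below 2.

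Other members fell short of 2-fold. Ifitm3 had 823 and 456 reads with a log2 ratio of 0.78, and Bst2 had 60 and 31 reads with 0.84. At the other end Ifi44 had -0.75 from 17 reads, and Eif2ak2 -0.52 from 707 reads in sort 1 and 965 in sort 2. The receptor chains had log2 ratios between -0.14 and 0.17, and Samhd1 had 0.00 with an interval of its count ratio from 0.986 to 1.02. Of the 41 ratios 19 lay above 0 and 22 below, a split close to that of all genes, with 6180 above and 6167 below. The IFITM genes shared a direction, with a median log2 ratio of 0.62, while the Ifit and Oas families did not. All 4 IFITM genes lay above 0, Ifit1 and Ifit2 lay below and Ifit3 above, and Oas1a and Oas3 lay above with Oas2 at -0.07.

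**Figure D4:**
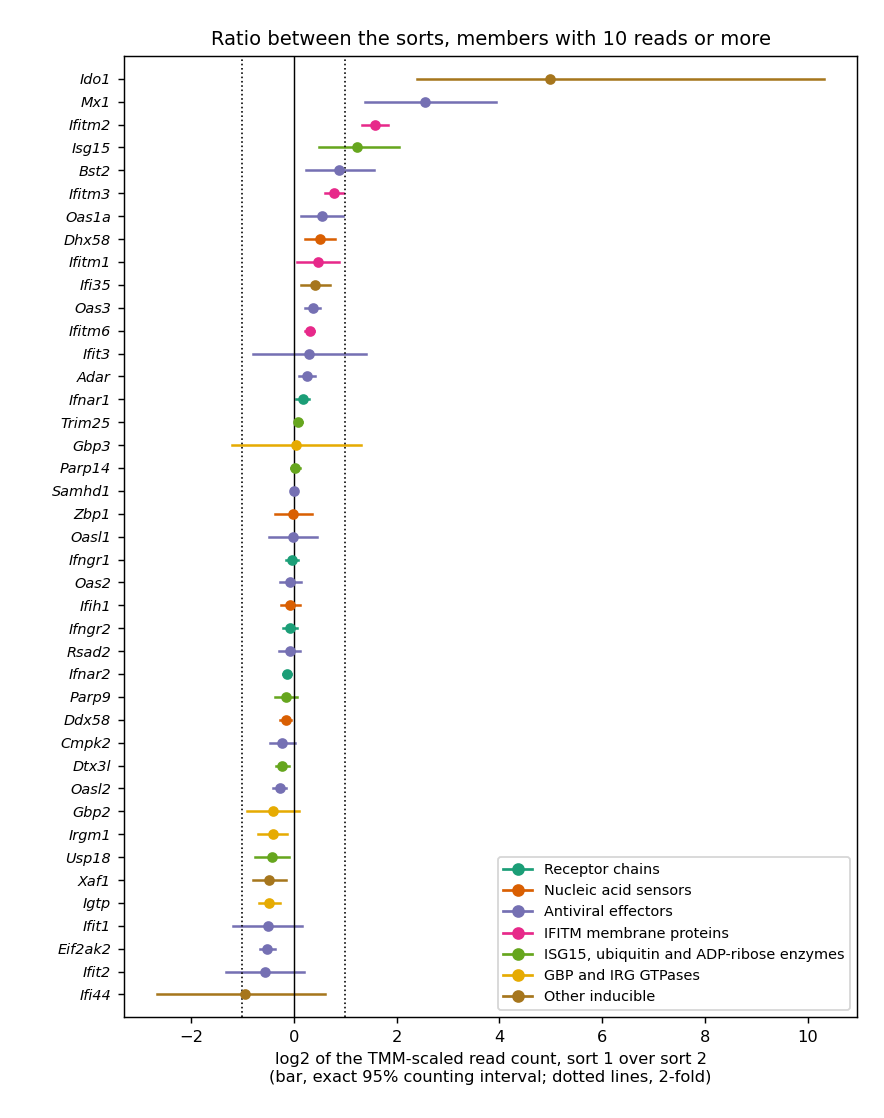
Ratio of the TMM-scaled counts of sort 1 over sort 2 (log2 axis, no prior count) for the 41 members with at least 10 reads, coloured by role, with exact 95% counting intervals. Ido1, Mx1, Ifitm2 and Isg15 lie right of the 2-fold line, and the intervals of Ido1, Mx1 and Ifitm2 lie wholly beyond it.

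Several measures moved with these differences. Of 14 monocyte and macrophage markers, 12 had higher scaled counts in sort 1 and 6 were at least 2-fold higher there, while Cx3cr1, with 2 and 26 reads, was at least 2-fold higher in sort 2. Their summed level was 256 RPKM in sort 1 and 184 in sort 2, of which Lyz2, abundant in neutrophils too, had 175 and 121. C1qa had 16 and 0 reads, C1qb 203 and 90, C1qc 195 and 72, Cd163 163 and 35, and Fcgr1 45 and 10. The sorted cells' own markers went the other way, with a median log2 ratio of -0.32 and summed levels of 2749 and 3539 RPKM. Neutrophil markers summed to 2148 and 1792 RPKM, and 8 of 12 were higher in sort 1. Among markers with at least 10 reads, 6 of 8 for B and plasma cells and 6 of 7 for T and NK cells were higher in sort 1. The numbers were 3 of 8 for basophils and mast cells, 3 of 7 for stem and progenitor cells and 1 of 9 for erythroid cells. Plasmacytoid dendritic cell markers, given because these cells express Bst2, summed to 17.2 and 17.9 RPKM, of which Runx2 alone had 13.8 and 14.9, and their defining marker Siglech had 7 and 8 reads. The part of these cells in the ratios of Ido1, Mx1, Isg15, Ifitm2 or Bst2 was not tested.

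Transcript GC content moved with the ratio as well. Across the 12164 genes with enough reads and a GC value, the Spearman correlation of log2 ratio and GC percentage was 0.43, and across the 41 members it was 0.57. All these points share the same pair of libraries. The GC content was 54.4% for Ifitm2, 52.8% for Isg15, 47.3% for Mx1 and 47.1% for Ido1, around a median of 49.5% over the members. After the trend with GC was taken out, the log2 ratios were 1.38 for Ifitm2, 1.05 for Isg15, 2.36 for Mx1 and 3.61 for Ido1, so each was still past 2-fold. Bst2, with a GC content of 55.3%, had 0.61 after the correction, and Eif2ak2, with 43.9%, had -0.30. Whether the sex of the mice had a part in these differences was not tested, since sex and sort cannot be told apart here.

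**Figure D5:**
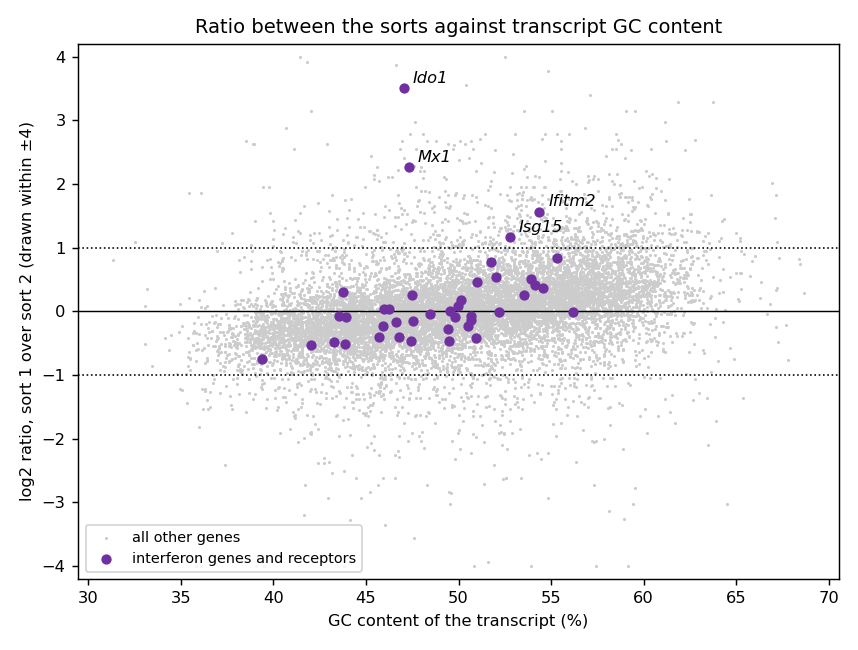
Log2 ratio of sort 1 over sort 2 against transcript GC content in percent, for the 41 members (purple) and all other genes with at least 10 reads (grey); dotted lines mark 2-fold. Members follow the slope of the grey cloud, and Ido1 and Mx1 stand above it at a GC content of 47.1% and 47.3%.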

How the data were processed

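Reads were aligned with STAR 2.4.0c to mm10, per the submitters' processing notes, and the libraries were stranded, made with dUTP, per the labels' protocols. The sources used here do not name the program, strand setting or filters of the counting. Read counts, as whole numbers, and RPKM values were deposited by the authors for 26099 groups of RefSeq transcripts. The RPKM divisor implied by single-transcript rows exceeded the table totals, which were 25% and 22.9% of it, so absolute RPKM values are low. The tables held 10087743 and 9264150 counted reads.

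Rows were summed by symbol into 23343 genes, of which 2060 came from several rows. Scaling used TMM from edgeR 4.0.16, and DESeq2 1.42.0 size factors served as an alternative. With 1 group of 2 libraries, edgeR's quasi-likelihood test could not be made and no p-value is given. The calculation of ratios and intervals was run on simulated counts that vary by counting error alone. Such a run checks the calculation and says nothing of the further spread between real libraries. GC content came from GENCODE M21 transcripts paired by RefSeq accession. Values are means ± SD over the sorts, and SDs over separate sorts of pooled marrow do not measure variation between single mice. Reads carry no molecular identifiers, so intervals and the limit of 3 reads for a count of 0 cover counting error only.

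The members and gene lists were chosen with earlier results of these data known. Every member is accounted for. Of the other lists, detected signalling, restraint, induction and receptor genes were named, with the 10 highest of the further inducible genes and up to 4 of the rest, except for genes that are not reported here. Genes named beyond this rule, such as Socs1, Gbp7, Gbp9, Cxcl9, Cxcl10, Mb21d1 and single cell type markers, were chosen after their values were seen.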

Additional observations from a re-analysis of the deposited data

How the results depend on the processing

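The number of members detected was 34 and 26 at RPKM minimums of 0.5 and 2 (37.1% and 22.1% of all genes), 38 at a CPM of at least 1 (46.8% of all genes), and 30 to 32 with either sort left out. The count for other pathway genes was 62 of 110, or 55 to 77 under the same alternatives, and 62 to 65 with either sort left out. The median RPKM of 2.52 became 3.48 as a mean of log2(RPKM + 1) turned back to RPKM, and 11.1 with the table's own total without Rn45s as divisor. It was 2.50 to 2.54 with either sort left out. The median log2 ratio between the sorts stayed between -0.08 and 0.06 under every scaling, prior count, RPKM and GC alternative. Members at least 2-fold apart numbered 4 under other scalings and a prior count of 0.5, 3 with at least 50 reads and 5 with no read minimum. For these settings no share of all genes was taken. After the GC correction 4 were higher in sort 1, against 4.79% of all genes, and 0 in sort 2, against 3.91%. At a fold of 1.5 there were 7 (6 higher in sort 1, against 14.7% of all genes, and 1 in sort 2, against 11.5%). The ISRE core was in 26 member promoters with 1 mismatch, though also in 38.9% of all genes. It was in 9 when followed by CT, against 0.303% of all genes. When only the 250 bases before the start were read it was in 12, against 3.46%. No paired analysis was possible because the study has 1 group. Depth limits the low members: ratios of Ido1, Mx1, Isg15, Bst2, Gbp3, Ifi44 and the Ifit genes rest on under 100 reads in both sorts together.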
